A study of Mus musculus with 6 samples.

Results

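Histones are the proteins that package DNA into nucleosomes, and their genes fall into 2 kinds that are read here across aged blood stem cells with much or little surface CD61. The members were all protein-coding genes of GENCODE mouse release M21 whose symbol starts with Hist1h, Hist2h, Hist3h or Hist4h, which are the 67 replication-dependent genes, together with 9 variant genes (H1f0, H1fx, H2afj, H2afv, H2afx, H2afy, H2afz, H3f3a and H3f3b). These 76 genes were taken from the 55450 genes listed in each library. The 6 bulk RNA-seq libraries were made from LT-HSCs, the long-term hematopoietic stem cells, of WT male C57/Bl6 mice aged 22 to 24 months, sorted as Lin-, Sca1+, cKit+, CD48- and CD150+. CD61High is the 10% of these cells with the most CD61 (integrin beta 3) and CD61Low the 10% with the least, and 5000 cells were taken for each library. Each of 3 mice gave 1 library per gate. The titles name 1 mouse for a library while the protocol speaks of pools, so p-values measure the spread between these libraries, taken here as 3 animals. No treatment separates the groups, and every library is from old males, so no statement on young or female cells can be made.

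Replication-dependent histone mRNAs are made while DNA is copied. Their genes lie in clusters, have no introns, and give transcripts that end after a short stem-loop bound by the protein Slbp, in place of a poly(A) tail. Variant genes lie outside the clusters, are transcribed through the cell cycle and give polyadenylated mRNA. The linker histone H1 sits where DNA enters and leaves the nucleosome, and H2A, H2B, H3 and H4 form its core. The cDNA was made with the SMART-Seq v4 kit, which primes on poly(A), so transcripts that end at the stem-loop are poorly captured as a matter of method, and levels of replication-dependent genes cannot be set against those of variants. Any H2afx transcripts that end at the stem-loop would be poorly captured in the same way.

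Of the 67 replication-dependent genes, 54 lie on chromosome 13 between 21715763 and 23934851 (GRCm38), 10 on chromosome 3, 2 on chromosome 11 and 1 on chromosome 6. The stem-loop that sets their transcripts apart was searched as the histone stem-loop consensus, a stretch of 16 bases, downstream of the stop codon of the annotated transcripts on the coding strand. It was found in 46 of the 67 replication-dependent genes and in 1 of the 9 variants, H2afx. Read anywhere in a protein-coding transcript, it was held by 20 of 21825 other protein-coding genes (0.0916%). The forms below are examples of the matches found, and the 4 bases of the loop are in capitals (5′ to 3′, GENCODE M21, GRCm38).
Hist1h1c, chr13:23739512-23739527, plus strand: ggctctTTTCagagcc
Hist1h4d, chr13:23581950-23581965, plus strand: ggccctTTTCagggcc
Hist1h2ac, chr13:23683477-23683492, minus strand: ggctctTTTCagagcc
H2afx, chr9:44335240-44335255, plus strand: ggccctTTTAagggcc
The form printed for Hist1h1c was the most frequent, in 26 genes, and that of Hist1h4d was shared by 7 genes. The element began 21 to 58 bases after the stop codon. Many genes without a match have an annotated 3′ UTR too short to hold it, such as 0 bases in Hist1h1b and 2 in Hist1h2ah. Others have a longer one, such as 742 bases in Hist1h2bc. A gene without a match can thus not be said to lack the stem-loop. In the genes printed, annotation runs on past it, by 840 bases in Hist1h1c, 770 in Hist1h4d, 2010 in Hist1h2ac and 822 in H2afx.

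Upstream sequence is shown for the linker histone genes on which the results turn, H1f0, H1fx and Hist1h1c. Windows of up to 250 bases before the RefSeq start (GRCm38.p6) were available for 70 of the 76 members, and bases inside the GENCODE gene are left off the print. Both strands were searched for 4 strings. CCAAT is a box bound by NF-Y. TATAAA is a form of the TATA box. The octamer ATTTGCAT is bound by Oct factors. The last, AAACACA, is a heptamer known from H1 gene promoters. The motif letters that were found are in capitals.
Hist1h1c, chr13:23738557-23738806, plus strand: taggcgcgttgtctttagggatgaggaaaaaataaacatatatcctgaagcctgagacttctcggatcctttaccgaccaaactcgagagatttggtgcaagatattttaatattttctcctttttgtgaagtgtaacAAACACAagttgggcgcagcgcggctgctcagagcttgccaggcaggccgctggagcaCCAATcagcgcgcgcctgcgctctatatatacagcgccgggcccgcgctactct
H1f0, chr15:79027962-79028211, plus strand: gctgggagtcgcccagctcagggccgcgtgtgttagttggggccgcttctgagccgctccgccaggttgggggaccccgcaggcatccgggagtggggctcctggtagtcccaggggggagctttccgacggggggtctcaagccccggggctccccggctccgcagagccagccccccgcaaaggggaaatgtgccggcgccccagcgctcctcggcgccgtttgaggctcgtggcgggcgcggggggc
H1fx, chr6:87981638-87981732, minus strand: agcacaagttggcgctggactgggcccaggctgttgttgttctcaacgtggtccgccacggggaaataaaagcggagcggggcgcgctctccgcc
The Hist1h1c window holds AAACACA and CCAAT. The H1f0 and H1fx windows hold none of the 4 strings, which says only that these letters are not there. CCAAT stood in 51 of 62 replication-dependent windows (82.3%) against 34.5% of 27025 promoters in all, and in 5 of 8 variant windows. By class, it stood in all replication-dependent H1, H2A and H2B windows and in 8 of 10 for H3, but in 3 of 12 for H4 (25.0%). TATAAA stood in 29 of 62 (46.8%) against 13.0%. The octamer was held by 7 of 18 H2A and 6 of 16 H2B windows, against 1.61% of all promoters, by no replication-dependent H1, H3 or H4 window, and by 1 of 8 variant windows, that of H3f3b. AAACACA stood in 5 of 6 replication-dependent H1 windows against 6.22% of all promoters. H2A and H2B genes are often paired head to head, so their windows overlap and are not independent.

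Total gene counts were 21354130 to 26398090 per library, and levels are given in CPM, in which every library is scaled to the same total. The floor of 3 counts stood at 0.114 to 0.140 CPM, so a lower level rests on fewer counts and may be missed. Of the markers that define the gate, Ly6a (Sca1), Kit and Slamf1 (CD150) were present in every library, and Ly6a was lower in CD61High in all 3 mice without overlap, at 71.6 to 119 CPM against 155 to 282 CPM (with the block, fold change -1.34, SE 0.16, adjusted p = 0.0446). Cd48, a marker of cells outside it, was at 59.9 and 130 CPM in the CD61High and CD61Low libraries of mouse 2, against 1.07 to 29.6 CPM in the other 4. Neutrophil markers moved with the gates and the mice: all 19 were lower in CD61High in all 3 mice, and their summed level was 425 to 75414 CPM of total counts in CD61High and 2153 to 121195 CPM in CD61Low, the highest in each group being mouse 2. The erythroid list summed to 626 to 14076 CPM in CD61High and 1071 to 26946 CPM in CD61Low (9 of 11 lower in all 3 mice), and the monocyte and macrophage list to 419 to 8824 and 569 to 13969 CPM (10 of 12). The B lineage list summed to 50.7 to 328 and 62.5 to 468 CPM (7 of 11 tested), and the T and NK cell list to 89.6 to 240 and 111 to 293 CPM (5 of 9 tested). The megakaryocyte list summed to 1687 to 3431 CPM in CD61High and 801 to 3486 CPM in CD61Low, with 7 of 10 tested members higher in all 3 mice. Of all genes tested, 24.7% were lower and 20.6% higher in CD61High in all 3 mice. No marker of these lists was at 0 in all 6 libraries. The part of these cells and of mouse 2 in the histone values was not tested, and in bulk samples fewer cells of a type and less RNA per cell cannot be told apart.

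Of the 76 histone genes, 44 passed the filter on low counts: all 9 variants and 35 of the replication-dependent genes. Another 24 replication-dependent genes had too few counts, and 8 had 0 counts in all libraries. A gene that passed only through the gate where it is high had to differ, so counts below are over genes tested, not over all members. With edgeR's quasi-likelihood test, 0 of the 44 were called at an adjusted p under 0.05, as were 0.0% of all 15610 genes tested. At an unadjusted p under 0.05, 3 members were higher in CD61High (H1fx, H1f0 and H2afy) and 0 were lower, where 3.56% of all genes were higher and 3.0% lower. DESeq2 called 1 member, H1fx, as higher, with 0.455% of all genes called as higher. Once mouse was added as a block, the edgeR call fell on 1 member, H1fx, as higher and on 0 as lower. Of all genes, 0.256% were then called, 0.0961% as higher and 0.16% as lower. With the block and an unadjusted p under 0.05, 5 members were higher (H1fx, H1f0, H2afv, H2afy and Hist2h2be) and 1 was lower (Hist1h1c), where 8.01% of all genes were higher and 12.8% lower. DESeq2 with the block called H1fx and H1f0 as higher (2.98% of all genes) and Hist1h1c as lower (6.73%).

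H1fx, a linker histone variant (ENSMUSG00000044927.6, chromosome 6, 87980421 to 87981637), had the smallest p of the 44 members. In mice 1, 2 and 3, the order kept from here on, it stood at 18.2, 12.9 and 21.5 TMM-adjusted CPM in CD61High and at 3.87, 2.57 and 6.22 CPM in CD61Low. The groups did not overlap, and mouse 2 was the lowest of both. The log2 fold change, CD61High over CD61Low as throughout, was 2.05 (SE 0.41, adjusted p = 0.652), and with the block 2.11 (SE 0.24, adjusted p = 0.0446). The blocked call was lost with upper-quartile factors (adjusted p = 0.0648), with library sizes alone (0.156), without mouse 1 (0.284) and without mouse 3 (0.103), and was kept without mouse 2 (0.0235), while the fold change over the leave-out fits was 1.80 to 2.40. Of its exon bases, 19.5% overlap Gm47286 and Gm5577. In the unstranded counts, reads that fall on more than 1 gene are listed as ambiguous, so they are missing from its count.

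H1f0, the linker histone variant known for its build-up in cells that have stopped dividing (ENSMUSG00000096210.2, chromosome 15, 79028450 to 79030504), stood at 323, 234 and 357 CPM in CD61High and at 198, 147 and 205 CPM in CD61Low. With TMM each CD61High library was above every CD61Low library, and mouse 2 was again the lowest of both groups. On library totals alone the groups overlapped, at 216 CPM in CD61High of mouse 2 against 227 CPM in CD61Low of mouse 3. The differences within the mice were close, at 0.71, 0.67 and 0.80 on the log2 CPM scale. The fold change was 0.73 (SE 0.22, adjusted p = 0.676), and with the block 0.73 (SE 0.12, adjusted p = 0.0622), so it was not called by edgeR in the 6 libraries. DESeq2 with the block gave an adjusted p of 6.03e-05, and edgeR with the block and without mouse 2 gave 0.0348. H1f0 was far more abundant than H1fx per length of exon, at 119 against 8.94 CPM per kb.

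**Figure D1:**
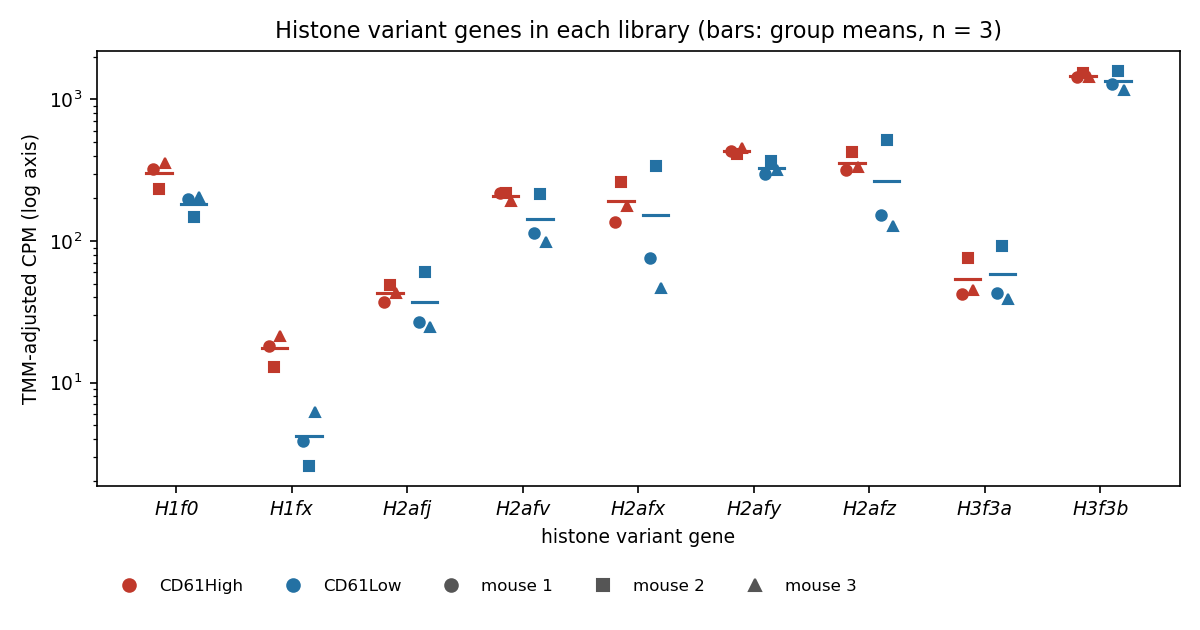
TMM-adjusted CPM (log axis) of the 9 variant genes in each library, with CD61High in red and CD61Low in blue, marker shapes for the 3 mice and bars at the group means (n = 3). H1f0, H1fx and H2afy do not overlap between the gates, while CD61Low of mouse 2 is the highest library for H2afj, H2afx, H2afz, H3f3a and H3f3b. On library totals alone H2afj and H3f3b are not highest there, H1f0 overlaps, and H2afv and H3f3b do not overlap.

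H2afy, which encodes macroH2A1, an H2A with a large extra domain known from the inactive X chromosome, was at 432, 411 and 452 CPM in CD61High and 296, 365 and 318 CPM in CD61Low. With TMM it was the third tested member higher without overlap, where 8.62% of all genes were higher in CD61High without overlap. None was lower without overlap, where 5.71% of all genes were. On library totals alone, the variants without overlap were H1fx, H2afv, H2afy and H3f3b. The share over all genes was not taken on that scaling, so this count has no background beside it. The H2afy fold change was 0.40 (SE 0.15, adjusted p = 0.721; 0.183 with the block), so it was not called.

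The H2A.Z genes and H2afx differed between the mice. H2afv, 1 of the 2 genes for H2A.Z, which marks promoters, was at 217, 218 and 191 CPM in CD61High and 113, 215 and 98.4 CPM in CD61Low. H2afz, the other gene, was at 315, 424 and 335 CPM in CD61High and 154, 520 and 127 CPM in CD61Low. H2afx, whose protein is phosphorylated at DNA breaks, was at 137, 260 and 176 CPM in CD61High and 75.7, 338 and 46.3 CPM in CD61Low. In mice 1 and 3 all 3 genes were higher in CD61High, whereas in mouse 2 the TMM-adjusted level of H2afv was almost the same in both gates and those of H2afz and H2afx were higher in CD61Low. The mouse 2 values depended on the scaling: on library totals alone CD61High over CD61Low was 1.23 for H2afv, 0.986 for H2afz and 0.931 for H2afx. Their fold changes of 0.56, 0.42 and 0.32 did not pass, with the block either (adjusted p = 0.169, 0.296 and 0.348). Without mouse 2 and with the block, H2afv was at 0.93 (adjusted p = 0.0235), H2afz at 1.20 (0.0235) and H2afx at 1.37 (0.0745). That fit called 4 of the 9 variants as higher (H1f0, H1fx, H2afv and H2afz) and 0 as lower, against 1.85% of 15548 genes higher and 2.93% lower. It compares 2 mice only. Single libraries moved the unblocked fold changes both ways: H2afz was 1.35 without CD61Low of mouse 2, 0.28 without CD61High of mouse 2, 0.16 without CD61Low of mouse 1 and 0.093 with that of mouse 3 left out. H2afx was 1.65, 0.029, 0.014 and -0.10 without the same libraries, and 0.53 without CD61High of mouse 1. For H2afv, leaving out CD61Low of mouse 2 gave 0.98 and leaving out that of mouse 3 gave 0.34.

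The H3 variant genes H3f3a and H3f3b encode the same replication-independent protein, and neither passed the test. H3f3b was the most abundant variant gene, with 50.7% of all counts on the variants and 475 CPM per kb. It was at 1437, 1551 and 1441 CPM in CD61High and 1285, 1602 and 1158 CPM in CD61Low, with a fold change of 0.13 (SE 0.18, adjusted p = 0.940). H3f3a was at 42.4, 75.7 and 44.9 CPM in CD61High and 43.2, 91.8 and 39.2 CPM in CD61Low. Its fold change of -0.10 (SE 0.41) was 0.04 with library sizes alone, and 22.8% of its exon bases overlap other genes. H2afj, which encodes H2A.J, was at 36.8, 48.7 and 43.2 CPM in CD61High and 26.9, 60.4 and 24.8 CPM in CD61Low (fold change 0.20, SE 0.38). Both genes were highest in CD61Low of mouse 2 with TMM, and neither passed. On library totals alone, H2afj was highest in CD61High of mouse 3, at 46.8 against 46.3 CPM in CD61Low of mouse 2, and H3f3b was higher in CD61High in all 3 mice.

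As a group, 8 of the 9 variants had a positive fold change, with a median of 0.40 (0.64 with the block), where the median over all genes was -0.05 (-0.02 with the block). Leaving out the CD61Low library of mouse 1, 2 or 3 moved the unblocked variant median to 0.16, 0.73 or 0.093. Higher in CD61High in all 3 mice were 4 (H1f0, H1fx, H2afv and H2afy) and lower in all 3 mice none, against 20.6% and 24.7% of all genes. The median difference within mice 1, 2 and 3 was 0.71, -0.05 and 0.80. Summed over the 9 genes, variant counts were 3220, 2992 and 3313 CPM of total gene counts in CD61High and 2352, 2557 and 2244 CPM in CD61Low. The ratio of the gates was 1.37, 1.17 and 1.48 in mice 1, 2 and 3, and 1.35, 0.968 and 1.51 with TMM-adjusted library sizes, so that mouse 2 changed direction with the scaling.

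The replication-dependent genes gave few reads. Their 67 members summed to 255, 296 and 162 CPM of total gene counts in CD61High and to 214, 450 and 141 CPM in CD61Low. The highest library, CD61Low of mouse 2, has a 95% Wilson interval of 442 to 458 CPM and the lowest, CD61Low of mouse 3, one of 137 to 146 CPM, for counting error only. The mean was 238 ± 68.9 CPM (SD, n = 3) for CD61High libraries and 269 ± 161 CPM (SD, n = 3) for CD61Low libraries. The gates stood in ratios of 1.19, 0.658 and 1.14 in mice 1, 2 and 3, so the mice did not share a direction.

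**Figure D2:**
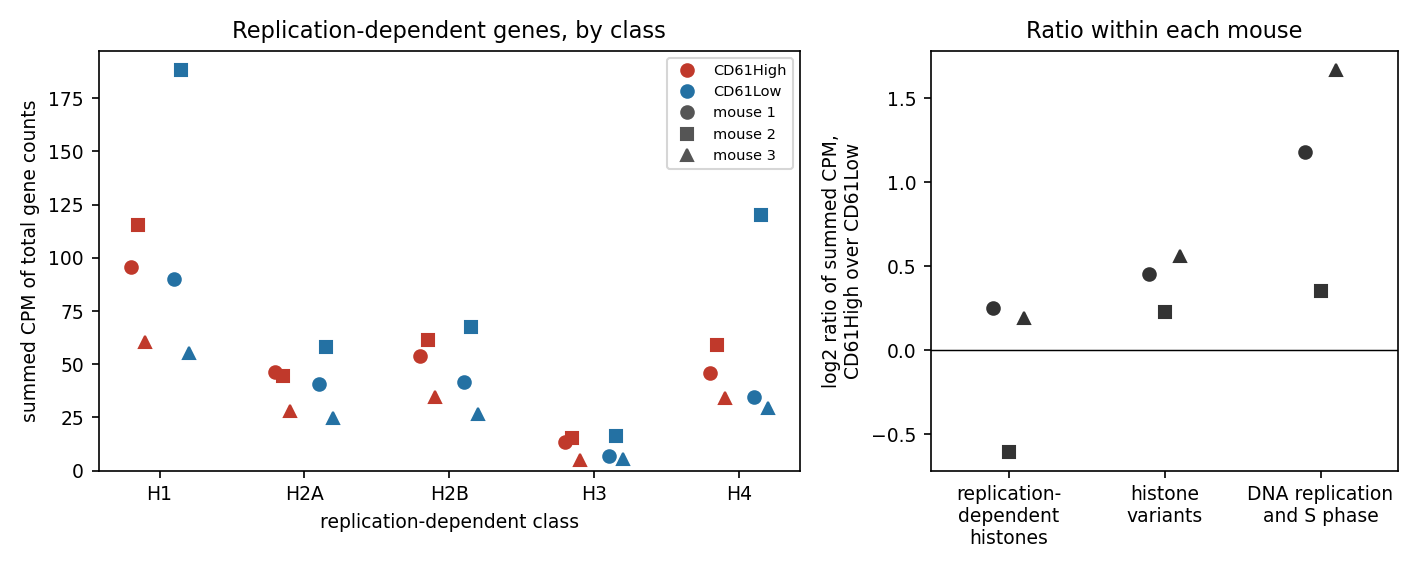
Left, summed CPM of total gene counts for the replication-dependent genes of each class, with 1 point per library. Right, the log2 ratio of CD61High over CD61Low within each mouse for 3 gene lists; CD61Low of mouse 2 is the highest library in each class, and mouse 2 has the lowest ratio in each list. With TMM-adjusted sizes the variant ratio of mouse 2 is 0.968, below 1.

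Across the 35 replication-dependent genes tested, 11 fold changes were positive and 24 negative, whereas with the block 21 were positive. The median was -0.16, or 0.10 with the block and 0.02 with library sizes alone. Without CD61Low of mouse 2 the median was 1.12, without CD61High of mouse 3 it was 0.18, and without both libraries of mouse 2 it was 0.64 with the block. With the block it was 0.12 without mouse 1 and -0.20 without mouse 3. Leaving out 1 library of a mouse breaks the pairing. The sign of the list therefore depended on the block and on the libraries and mice kept. The median difference within a mouse was 0.42, -0.61 and 0.70 in mice 1, 2 and 3, and 29, 8 and 23 of the 35 genes were higher in CD61High. In 18 genes the difference was positive in mice 1 and 3 and negative in mouse 2. CD61Low of mouse 2 was the highest of all 6 libraries for 27 of the 35 genes, and 22 of the 35 with library totals alone. CD61Low of mouse 3 was the lowest for 22. CD61Low of mouse 2 was also the highest library for the summed neutrophil, erythroid, B lineage, monocyte, and T and NK lists, and their part in these values was not tested. Higher in all 3 mice were 3 genes (Hist1h2bb, Hist1h2bh and Hist2h2be) and lower in all 3 mice were 3 (Hist1h1c, Hist3h2a and Hist4h4), against 20.6% and 24.7% of all genes.

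**Figure D3:**
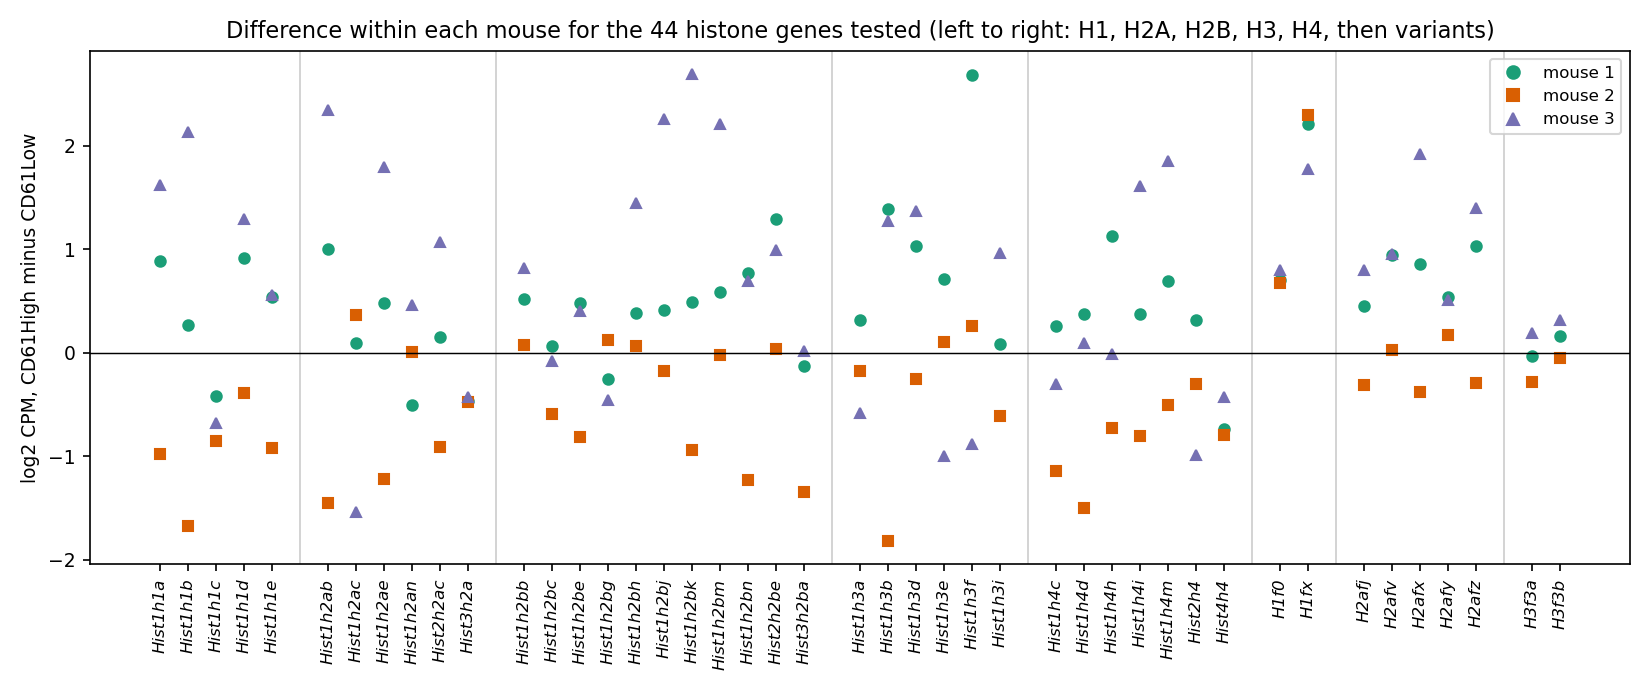
Difference in log2 CPM between CD61High and CD61Low within each mouse, for the 44 histone genes tested, grouped by class with the variants at the right. Mouse 2 (squares) lies below zero for 27 of the 35 replication-dependent genes, whereas H1f0 and H1fx lie above zero in all 3 mice.

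Among the linker histones, 5 of 6 genes were tested. Hist1h1c, the replication-dependent gene with the most counts (ENSMUSG00000036181.2, chromosome 13, 23738808 to 23740367), was at 37.3, 65.5 and 20.4 CPM in CD61High and 49.6, 118 and 32.6 CPM in CD61Low. The groups overlapped, yet CD61Low was the higher gate in each mouse. Its fold change was -0.70 (SE 0.61, adjusted p = 0.909), and with the block -0.65 (SE 0.15, adjusted p = 0.0898), and DESeq2 with the block called it (-0.66, adjusted p = 0.00778). Without CD61Low of mouse 2 the unblocked value was -0.0019. The 4 other tested H1 genes were higher in CD61High in mice 1 and 3 and lower in mouse 2. Hist1h1e was at 27.7, 27.0 and 17.2 CPM in CD61High and 19.0, 51.1 and 11.7 CPM in CD61Low, and Hist1h1d had a fold change of 0.25 (SE 0.71). Of the Hist1h1e exon bases, 25.7% overlap Hist1h2be and Gm11398. Hist1h1b, added after its values were seen, had a wide range, from 2.05 CPM in CD61Low of mouse 3 to 54.7 CPM in CD61Low of mouse 2. The class median was -0.19 (0.18 with the block).

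In the H2A class, 6 of 18 genes were tested, and the median was -0.27 (0.02 with the block). Hist1h2ac was at 19.9, 17.9 and 3.99 CPM in CD61High and 18.6, 13.9 and 11.7 CPM in CD61Low, with its lowest value in CD61High of mouse 3. Hist1h2ae was at 11.4, 14.1 and 13.6 CPM in CD61High and 8.21, 32.9 and 3.87 CPM in CD61Low. The CD61Low libraries of Hist1h2ae thus lay on both sides of the CD61High libraries. Hist3h2a, which lies outside the large cluster on chromosome 11, was at 4.99, 6.19 and 4.14 CPM in CD61High and 6.93, 8.66 and 5.59 CPM in CD61Low. Its differences within the mice were -0.47, -0.48 and -0.43, the fold change was -0.47 (SE 0.32) and the blocked adjusted p was 0.333. For Hist3h2a, 33.0% of exon bases overlap Gm44313 and Trim17.

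In the H2B class, 11 of 18 genes were tested, with a median of -0.09 (0.49 with the block). Hist2h2be (ENSMUSG00000068854.7, chromosome 3, 96221119 to 96223738) was at 14.5, 15.1 and 13.2 CPM in CD61High and 5.91, 14.7 and 6.59 CPM in CD61Low. CD61High was even across the mice, while CD61Low of mouse 2 reached its level. The fold change was 0.65 (SE 0.40), and with the block 0.78 (SE 0.30, adjusted p = 0.213). No stem-loop was found in its annotated transcripts, whose longest 3′ UTR spans 2192 bases. Hist1h2bc was at 21.8, 28.7 and 12.4 CPM in CD61High and 20.8, 43.2 and 13.1 CPM in CD61Low, a fold change of -0.29 (SE 0.52).

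The H3 class had the fewest reads, and its 12 genes summed to 4.88 to 15.5 CPM in CD61High and 5.37 to 16.4 CPM in CD61Low. The 6 genes tested had a median of -0.03 (0.18 with the block). Hist1h3e was at 4.82, 5.01 and 1.66 CPM in CD61High and 2.92, 4.65 and 3.39 CPM in CD61Low, and Hist1h3d ranged from 0.521 CPM in CD61Low of mouse 3 to 6.14 CPM in CD61Low of mouse 2. Neither gene separated the gates. For Hist1h3e, 26.6% of its 50-base stretches are found in no other annotated gene, so reads from it may be lost to other places. The length of 50 bases was a choice, since the read length is not given, and that loss was not measured.

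In the H4 class, 7 of 13 genes were tested, with a median of -0.29 (-0.34 with the block). Its sum had the widest gap in mouse 2, at 59.3 CPM in CD61High against 120 CPM in CD61Low, a ratio of 0.494, while the ratios of mice 1 and 3 were 1.32 and 1.16. Hist1h4d, the most abundant replication-dependent gene per length at 37.3 CPM per kb, moved the same way: it was at 29.9, 40.8 and 23.6 CPM in CD61High and 23.0, 115 and 22.2 CPM in CD61Low. Hist1h4i was at 6.41, 9.90 and 5.17 CPM in CD61High and 4.92, 17.3 and 1.64 CPM in CD61Low. Hist4h4, the only replication-dependent gene on chromosome 6, was at 0.645, 2.05 and 0.702 CPM in CD61High and 1.13, 3.61 and 0.968 CPM in CD61Low. Its fold change was -0.74 (SE 0.75) and, with the block, -0.70 (SE 0.40, adjusted p = 0.366). CD61Low was the higher gate in each mouse, at levels of few counts.

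Few genes carried the replication-dependent reads. Hist1h1c held 20.0% of the counts, Hist1h4d 15.5%, Hist1h1e 9.55% and Hist1h2bc 8.76%, which together make 53.8%, and the first 10 genes held 81.0%. The 22 genes with an annotated 3′ UTR of at least 300 bases held 78.0% of the counts, and the 45 with a shorter one held 22.0%. Per length of exon, the medians of these 2 groups were 1.76 and 0.86 CPM per kb. Reads that map to several places are listed apart from genes in the deposited tables, so sequence shared with other annotated genes was measured too. This measure does not separate copies elsewhere from annotated genes that overlap at the same place. The 33 genes with at least 50% of their 50-base stretches found in no other annotated gene had 35174 counts and 25 of them were tested, whereas the 34 others had 2461 counts and 10 were tested. The 2 splits go together: the median share of such stretches was 75.3% in genes with the longer 3′ UTR and 35.2% in the rest. In 5 genes (Hist2h2aa1, Hist2h2aa2, Hist2h2bb, Hist2h3b and Hist2h3c1) no stretch was their own, and all their exon bases also overlap annotated Gm genes, so that the overlap alone leaves them none. All 5 were among the 8 at 0, with Hist1h1t, known from the testis, Hist1h2br and Hist2h2ab. Hist1h1t differed from the 5, as 100% of its stretches were found in no other annotated gene and 0% of its exon bases overlap another. Transcripts that end at the stem-loop are poorly captured, so its zero cannot be read as a lack of mRNA. Nor can those of the others, and the values of copies with little sequence of their own are uncertain.

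**Figure D4:**
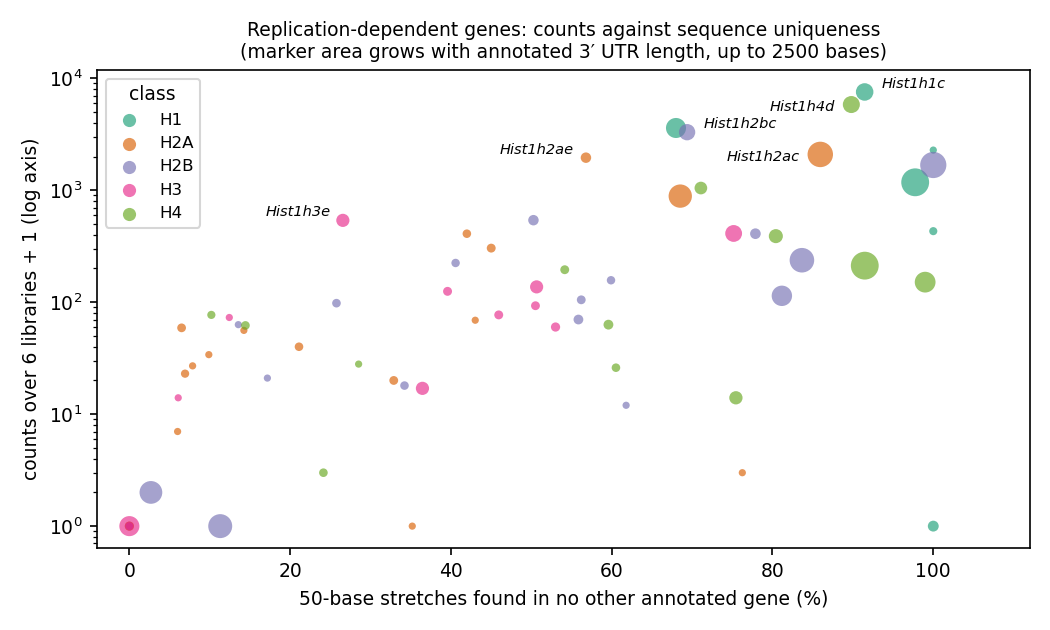
Counts over the 6 libraries plus 1 (log axis) of the 67 replication-dependent genes against the share of their 50-base stretches found in no other annotated gene, coloured by class, with larger markers for a longer annotated 3′ UTR. Genes with under 50% unique stretches held 2461 of the counts and genes above it 35174.

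The genes that make and end histone mRNA were read beside their targets. All 14 were tested, and 13 had a positive fold change, with a median of 0.35; 10 were higher and 1 lower in CD61High in all 3 mice (20.6% and 24.7% of all genes), and 2 were higher at an unadjusted p under 0.05 (3.56% of all genes). None was called by edgeR with or without the block, and DESeq2 with the block called 2 as higher (2.98% of all genes). Ncbp1, a subunit of the cap-binding complex, was at 155, 141 and 154 CPM in CD61High and 86.4, 126 and 85.1 CPM in CD61Low (0.59, SE 0.20; adjusted p = 0.683, and 0.130 with the block). Cpsf3, the endonuclease that cuts histone pre-mRNA, had a fold change of 0.31 (SE 0.12). Slbp, the protein that binds the stem-loop, named here for that role, was at 167, 273 and 186 CPM in CD61High and 94.1, 344 and 58.9 CPM in CD61Low, with CD61Low of mouse 2 the highest library, as for H2afx and H2afz.

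Of the 25 histone chaperones and deposition factors, 19 had a positive fold change, with a median of 0.12 (0.24 with the block). The median difference within mice 1, 2 and 3 was 0.30, -0.06 and 0.42. At an unadjusted p under 0.05, 2 were higher (3.56% of all genes), edgeR called none with or without the block, and DESeq2 with the block called 3 as higher (2.98% of all genes). Chaf1b, a subunit of the CAF-1 complex that places new histones behind the replication fork, was at 185, 157 and 214 CPM in CD61High and 107, 113 and 121 CPM in CD61Low. Its groups did not overlap, and the fold change was 0.70 (SE 0.16, adjusted p = 0.652; 0.0742 with the block). Nap1l1, a chaperone of H2A and H2B, had a fold change of 0.65 (SE 0.20; adjusted p = 0.138 with the block).

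The DNA replication and S phase list was set beside the histones because their mRNAs share a phase of the cell cycle. Of its 35 genes 33 had a positive fold change, with a median of 0.78 (1.07 with the block). At an unadjusted p under 0.05, 8 were higher (3.56% of all genes). None was called by edgeR with or without the block. DESeq2 with the block called 20 as higher (2.98% of all genes), and edgeR with the block and without mouse 2 called 27 (1.85%). Summed CPM of total gene counts was 6306, 7297 and 7432 in CD61High and 2782, 5715 and 2338 in CD61Low. The ratio of the gates was thus 2.27, 1.28 and 3.18, where it was 1.19, 0.658 and 1.14 for the replication-dependent histones. With TMM-adjusted library sizes the ratios were 2.23, 1.06 and 3.26 for this list and 1.17, 0.545 and 1.17 for those histones. The gates of mouse 2 were then close for this list. Pold1, the catalytic subunit of a replicative polymerase, was at 238, 249 and 296 CPM in CD61High and 108, 160 and 108 CPM in CD61Low (1.06, SE 0.21; adjusted p = 0.062 with the block). Pola1, the catalytic subunit of the polymerase that starts new strands, had a fold change of 1.20 (SE 0.24; adjusted p = 0.0657 with the block).

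Of 5 histone variants outside the rule, 3 were at 0 in all libraries and 2 were tested. Cenpa, the H3 of centromeres, was at 79.2, 157 and 68.6 CPM in CD61High and 38.3, 222 and 13.9 CPM in CD61Low, the same order of libraries within each mouse as H2afx and H2afz. H2afy2, which encodes macroH2A2, was at 5.29, 2.96 and 6.98 CPM in CD61High and 1.93, 0.990 and 3.87 CPM in CD61Low. It was higher in CD61High in each mouse (1.16, SE 0.61), and with the block the adjusted p was 0.105.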

How the data were processed

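Per the file headers and values, the authors deposited whole-number read counts per gene, not normalized, as 1 STAR table per library, plus a series table of 17500 genes with 0 differing values. STAR 2.7, MultiQC and edgeR were used per the submitters' processing notes; the build is not given in the sources used here. All 55450 identifiers matched GENCODE M21 (GRCm38). Unstranded counts were used, since 49.9% to 50.0% of stranded counts lay on the first strand. Lines naming no gene stayed out of totals: multimapping reads were 10.0% to 15.6% of a library, unmapped 4.36% to 10.9%, ambiguous 3.55% to 4.37% and those outside genes 2.88% to 4.21%.

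The 2 gates were compared with the quasi-likelihood test of edgeR 4.0.16 (R 4.3.3), two-sided, after filterByExpr and TMM scaling with a robust fit. P-values were adjusted by Benjamini-Hochberg over 15610 genes and called under 0.05. DESeq2 1.42.0, other scalings, no filter, left-out libraries and a mouse block were alternatives, and the fit was tested on simulated data. SEs come from the F statistic. Within-mouse differences are log2 CPM with a prior count of 2. Intervals and floors (3 counts) cover counting error only. The pairing rests on the titles, which name the mouse: deviations from group means correlated at 0.236, 0.806 and 0.761 within mice 1, 2 and 3 and at -0.823 to 0.374 between mice. Median fold changes of lists carry no test.

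The members and lists were chosen with earlier results of these data known, and 158 of 159 list symbols matched. The genes named are all variants; per replication-dependent class the 2 of highest mean CPM; members called with or without the block; the 3 replication-dependent genes per direction of smallest blocked p; the 2 genes of smallest p in each related list; and tested variants outside the rule. Slbp, Hist1h1b and genes named in counts were added after their values were seen.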

Additional observations from a re-analysis of the deposited data

How the results depend on the processing

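Over 30 named genes and 660 alternative values, 564 kept direction and side of the threshold, 70 changed sign and 26 became called. Without the block, the other scalings and no filter on low counts left 0 genes called. With the replicate block 40 genes and 1 histone member were called, with the block and RLE factors 88 and 1, and with the block and upper-quartile factors 8 and 0, while the block with library sizes alone called 0 and 0. DESeq2 called 135 genes and 1 member, and with the block 1524 and 3. Leaving out libraries gave 0 to 742 genes and 0 to 4 members called, the highest without mouse 2 with the block (133 genes and 1 member, H2afz, without it). The replication-dependent median ranged from -0.61 to 1.12 and the variant median from 0.09 to 0.74 over left-out libraries, with different members passing the filter. No alternative changed the sign of Hist1h1c, H1f0 or H1fx, though the range of Hist1h1c over left-out libraries ended at -0.0019. Over left-out libraries the signs of H2afv, H2afy, H2afz, H3f3b, Hist2h2be and Hist3h2a did not change either. The cause of the sign changes in other genes was not tested.

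With the replicate block the sign turned for Hist1h1e (0.062), Hist1h2ae (0.34), Hist1h3e (-0.047) and Hist1h4i (0.36). With the block these were 0.052, 0.34, -0.063 and 0.37 in DESeq2, 0.039, 0.32, -0.069 and 0.34 with RLE factors, and 0.052, 0.33, -0.055 and 0.36 with upper-quartile factors. With library sizes alone, H3f3a was 0.040, Hist1h1e 0.024, Hist1h2ae 0.070 and Hist1h4i 0.093, and with the block 0.048, 0.15, 0.43 and 0.46. The ranges over left-out libraries that crossed 0 were -0.33 to 1.96 for Cenpa, -0.028 to 0.73 for H2afj, -0.10 to 1.65 for H2afx, -0.41 to 0.40 for H3f3a, -0.17 to 1.32 for Hist1h1d, -0.55 to 0.64 for Hist1h1e, -0.71 to 0.35 for Hist1h2ac, -0.66 to 1.12 for Hist1h2ae, -0.61 to 0.30 for Hist1h2bc, -0.23 to 1.68 for Hist1h3d, -0.44 to 0.43 for Hist1h3e, -1.12 to 0.48 for Hist1h4d, -0.62 to 1.12 for Hist1h4i and -1.49 to 0.11 for Hist4h4. Genes under 1 CPM rest on few counts, and depth limits them.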
